A study of Sus scrofa with 9 samples.

Results

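Matrix metalloproteinases (MMPs) and the tissue inhibitors of metalloproteinases (TIMPs) were described in aortas (abdominal part) from male pigs of the Tibetan minipig strain. The 10 genes were chosen by name: the interstitial collagenase MMP1, the stromelysin MMP3, the gelatinases MMP2 and MMP9, the macrophage elastase MMP12, the membrane-type MMP14, MMP19, and the inhibitors TIMP1, TIMP2 and TIMP3. Of these, 9 had a row of their own name among the 21357 genes of the table, and no row was named MMP1. RNA-seq was performed on 9 libraries in 3 groups of 3. NC pigs (labelled normal control) were given a normal diet for 24 weeks, H8 pigs (labelled hypercholesterolemia) a high-fat diet for 8 weeks and H24 pigs (labelled atherosclerosis) a high-fat diet for 24 weeks. The authors describe the feed of the H24 pigs as high in cholesterol as well as fat, and it is called the high-fat diet here. The NC pigs were killed after 24 weeks, so diet and time on study cannot be told apart in the H8/NC comparison. H24 and H8 likewise differ in time on study and age as well as in weeks of the diet, with no control at 8 weeks. For the H8 pigs only the sample labels were available. The RNA came from bulk vessel tissue, in which fewer cells of a type and less RNA per cell cannot be told apart. The NC and H24 libraries came from separate pigs. Nothing states this for H8, where the spread between libraries may be technical.

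MMPs are zinc-dependent endopeptidases that cleave collagens, elastin, proteoglycans and many non-matrix proteins. Most are secreted as inactive proenzymes and are activated when the prodomain is removed by plasmin, furin or another MMP. TIMPs bind the active site and block it, and TIMP2 also takes part in the activation of pro-MMP2 by MMP14 at the cell surface. In the artery wall, smooth muscle cells, fibroblasts and macrophages are known sources, and these enzymes are studied for their part in intimal growth, elastin loss and plaque rupture.

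Total counts per library were between 44094263 and 75787978, at which 3 counts (taken as the smallest signal, counting error only) correspond to 0.0396 to 0.0680 CPM (counts scaled to the library total). Pearson's r between libraries of a group, taken across genes on log2 CPM (genes are not replicates), was 0.976 to 0.980 in NC and 0.963 to 0.979 in H8. H24 replicates 1 and 2 had an r of 0.963, while H24 replicate 3 stood apart, with an r of 0.916 to replicate 1 and 0.890 to replicate 2. Values without this library stand beside the results that it moved most. The aortic label was checked against 7 smooth muscle markers, whose summed level was 11405 to 13472 FPKM (fragments scaled by gene length and library size) in NC, 9993 to 13286 in H8, and 7835, 11644 and 1712 in H24 replicates 1 to 3.

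Levels per gene length could be compared between the genes as FPKM. In the NC aorta the inhibitors and the constitutive enzymes made up nearly the whole sum of the 9 rows. TIMP2 was at 263 ± 22.9 FPKM (SD, n = 3), TIMP3 at 221 ± 37.9, MMP2 at 98.1 ± 27.3, TIMP1 at 97.5 ± 5.73 and MMP14 at 39.9 ± 8.63. The NC ranges of TIMP2 and TIMP3 overlapped, as did those of MMP2 and TIMP1. Far below them, MMP19 was at 2.34 ± 0.125, MMP12 at 0.337 ± 0.334, MMP9 at 0.301 ± 0.110 and the row named MMP3 at 0.00913 ± 0.00954 FPKM. MMP12 and MMP9 did not differ beyond their spread. By mean level among all 21357 genes, TIMP2 ranked 136 and MMP9 ranked 12775 in NC. In H8 the first 5 kept this order, and MMP9, at 1.76 ± 0.652 FPKM, was above MMP12, at 0.0803 ± 0.0483. In H24 the order of means was TIMP2 (330 ± 18.7), TIMP1 (234 ± 107), TIMP3 (176 ± 97.2), MMP9 (155 ± 244), MMP2 (145 ± 51.3), MMP14 (110 ± 77.7), MMP19 (11.7 ± 8.82), MMP12 (2.93 ± 3.39) and the row named MMP3 (0.513 ± 0.404). The place of MMP9 in this order, and its rank of 244 among all genes, came from H24 replicate 3, and in H24 replicates 1 and 2 MMP9 lay below MMP2, MMP14 and all 3 inhibitors.

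**Figure D1:**
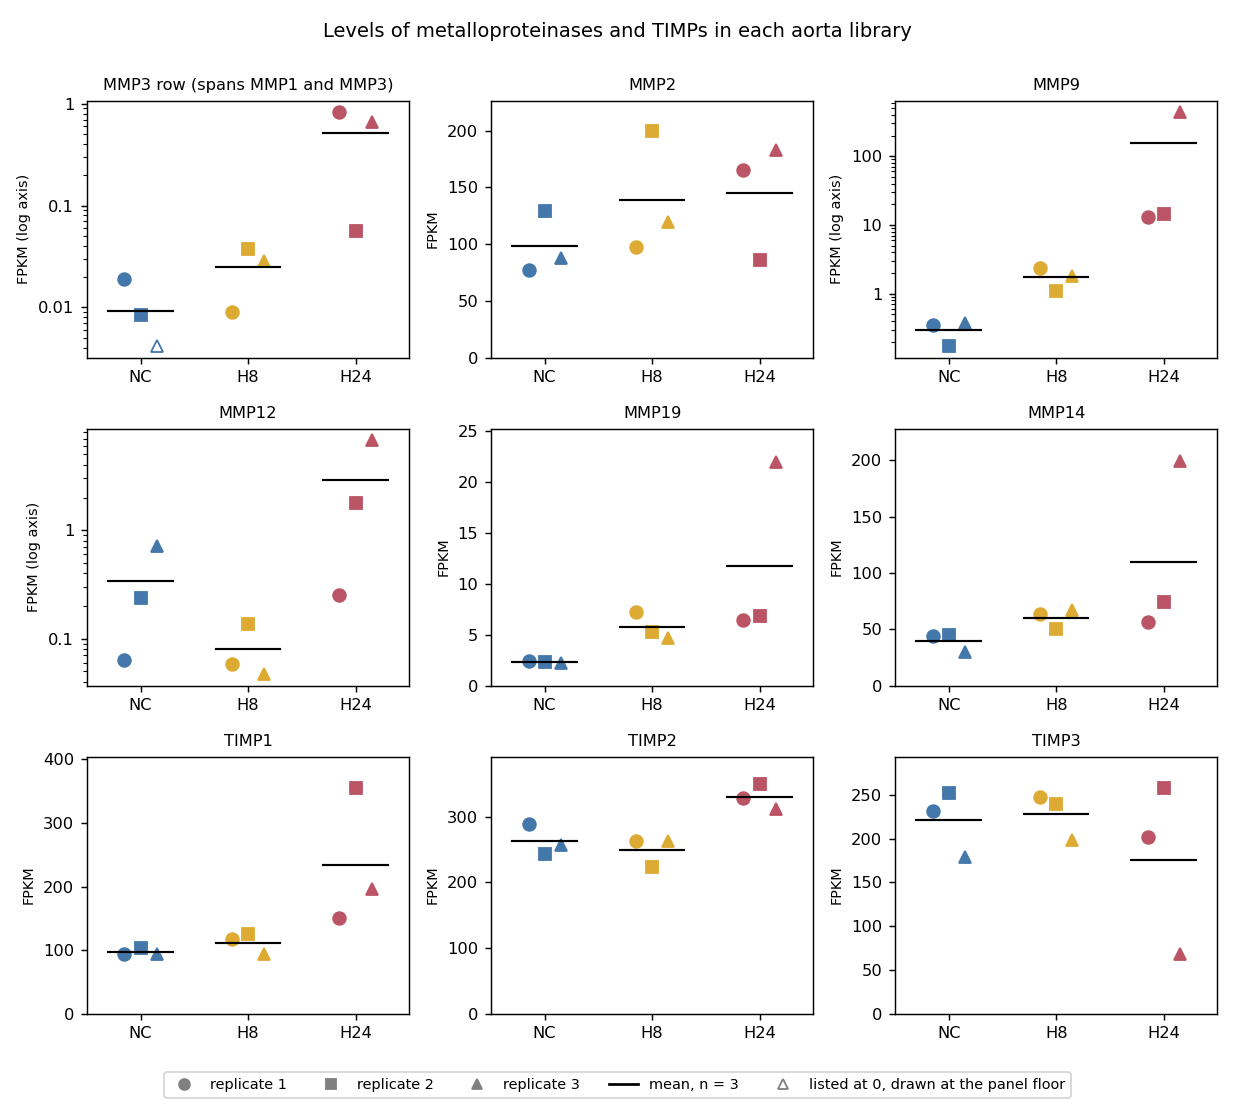
FPKM of the 9 rows (y axis, on a log axis for the row named MMP3, MMP9 and MMP12 and from 0 for the others) in each library of NC, H8 and H24 (x axis). Points are libraries, marker shapes are replicate numbers, and black lines are group means (n = 3). MMP9 lies at 0.174 to 0.375 FPKM in NC and at 13.0, 14.7 and 437 in H24, while TIMP2 stays between 223 and 349 FPKM in all 9 libraries.

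In the following, counts were compared with edgeR's quasi-likelihood test, in which a gene was called when its log2 fold change was beyond 1 in size with an unadjusted p under 0.05. Adjusted p-values are Benjamini-Hochberg values over all genes tested in the comparison, which were those with a mean FPKM of at least 0.1. By the adjusted p at a threshold of 0.05, none of the 9 rows passed in any of the 3 comparisons with all libraries, where 0%, 0.0279% and 0.0135% of all tested genes passed with the same fold threshold in H24/NC, H8/NC and H24/H8. At the unadjusted p under 0.05 and that fold, 6, 2 and 3 rows did. H24/NC and H8/NC share the NC libraries, and H24/H8 is the test of the difference between them, against the same 24-week controls.

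After 24 weeks of the high-fat diet, 6 of the 9 rows were called higher than in NC: MMP9, the row named MMP3, MMP12, MMP19, MMP14 and TIMP1. None was called lower. Among the 14828 genes tested in H24/NC, 9.95% were called higher and 1.52% lower. The median log2 fold change of the 9 rows was 1.44, beside 0.01 for all genes tested. The row named MMP3 passed the filter on low values only through its H24 libraries, so its place in this count was in part fixed by the filter. After 8 weeks, 2 of the 8 rows tested were called higher, MMP9 and MMP19, where 5.11% of 14336 genes were called higher and 2.27% lower. The median of the 8 rows was 0.50, beside 0.01 for all genes. Between the high-fat diet groups (H24/H8), 3 of 9 rows were called higher, MMP9, MMP12 and the row named MMP3, where 7.22% of 14788 genes were called higher and 3.05% lower. Here the median of the 9 rows was 0.84 and that of all genes 0.04. MMP12 and the row named MMP3 were under 0.1 FPKM on average in H8 and passed the filter only through their H24 libraries, so 2 of these 3 calls were in part fixed by it. Without H24 replicate 3, 4 of the 9 rows were called higher in H24/NC (MMP9, MMP19, the row named MMP3 and TIMP1) and 4 in H24/H8 (MMP9, MMP12, the row named MMP3 and TIMP1). Among all genes tested without this library, 6.49% were called higher in H24/NC and 3.75% in H24/H8. The median of the 9 rows was then 1.37 in H24/NC and 0.28 in H24/H8.

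**Figure D2:**
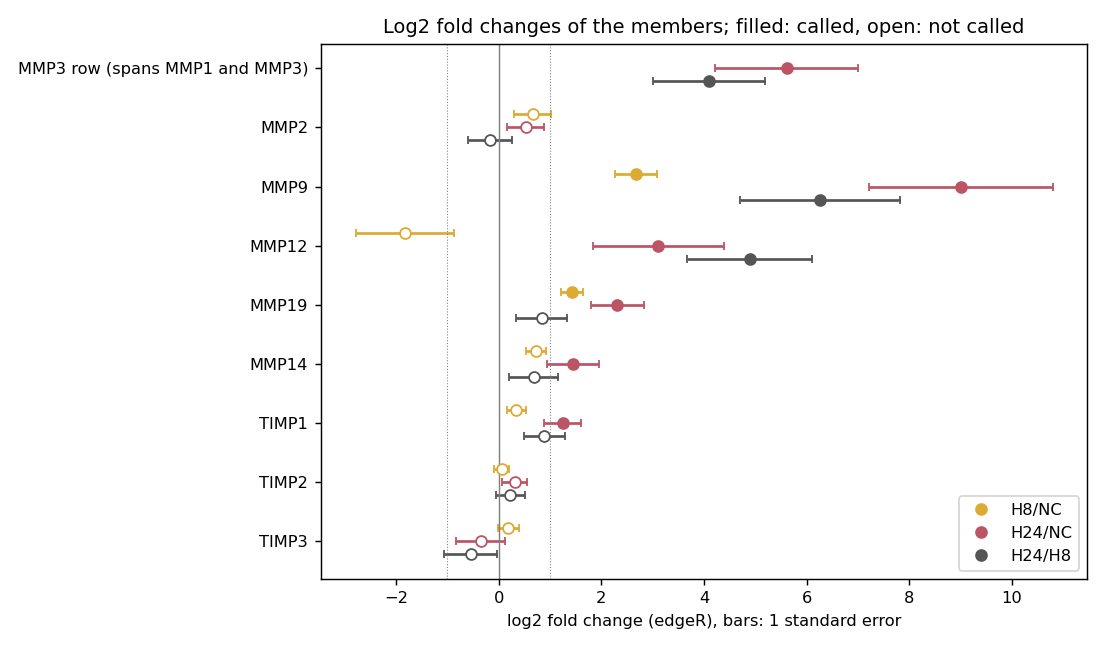
Log2 fold changes (x axis) of the 9 rows (y axis) in H8/NC, H24/NC and H24/H8, with bars of 1 standard error (edgeR, 3 libraries per group). Filled points were called and dotted lines mark a log2 fold change of -1 and 1. MMP9 has the largest value in each of the 3 comparisons (2.68, 9.001 and 6.26), and the row named MMP3 has none in H8/NC because it was under the filter.

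MMP9, or gelatinase B, degrades denatured collagen, type IV collagen and elastin. Its row (ENSSSCG00000007436) lies on chromosome 17 from 48175056 to 48188264 (Sscrofa11.1, plus strand). MMP9 was at 0.352, 0.174 and 0.375 FPKM in NC replicates 1 to 3, at 2.39, 1.09 and 1.80 in H8, and at 13.0, 14.7 and 437 in H24. Each group lay above the one before it with no overlap, and H24 replicate 3 was far above the other H24 libraries. The counts behind these values were 75 to 138 in NC, 417 to 924 in H8 and 4871, 3670 and 150036 in H24. By its median the H24 group was 41.7 times NC and the H8 group 5.11 times NC. In H8/NC the log2 fold change was 2.68 (SE 0.41, adjusted p = 0.0937). In H24/NC it was 9.001 (SE 1.79, adjusted p = 0.132), and without H24 replicate 3 it was 5.51 (SE 0.36, adjusted p = 0.00460). The difference between the high-fat diet groups was 6.26 (SE 1.56, adjusted p = 0.336) and without H24 replicate 3 was 2.83 (SE 0.32, adjusted p = 0.119). Thus the size of the MMP9 difference depended on this library, but its call did not. The row of TP53RK, a gene on the opposite strand whose model spans MMP9, was between 1.36 and 3.22 FPKM in all libraries.

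MMP2, or gelatinase A, is made by smooth muscle cells and fibroblasts and shares much of its substrate range with MMP9. It lies on chromosome 6 from 30058595 to 30087031 on the minus strand (ENSSSCG00000002829). MMP2 was at 77.3, 129 and 88.1 FPKM in NC, at 97.9, 199.9 and 120 in H8, and at 165, 86.5 and 183 in H24. The 3 groups overlapped, with H24 replicate 2 below NC replicates 2 and 3. Its log2 fold change was 0.66 (SE 0.36, adjusted p = 0.433) in H8/NC, 0.53 (SE 0.36, adjusted p = 0.572) in H24/NC and -0.17 (SE 0.43, adjusted p = 0.879) in H24/H8. MMP2 was not called in any comparison. The H24/H8 value was 0.28 without H8 replicate 2 and 0.07 without H24 replicate 2.

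MMP1 cleaves the triple helix of fibrillar collagens, and MMP3 cleaves proteoglycans, laminin and other MMP proenzymes. The row named MMP3 (ENSSSCG00000014985, chromosome 9 from 33410143 to 33453938, minus strand, 3 transcripts) spans the RefSeq genes MMP1 (33411738 to 33420205) and MMP3 (33446969 to 33453995), and a newer name table pairs its identifier with MMP1. Its values therefore cannot be split between the collagenase and the stromelysin. It was at 0.0190, 0.00835 and 0 FPKM in NC, at 0.00901, 0.0371 and 0.0284 in H8, and at 0.826, 0.0568 and 0.655 in H24. The NC and H8 libraries overlapped and every H24 library was above them, with H24 replicate 2 close to the highest H8 library. The counts were 8, 5 and 0 in NC, 4, 16 and 14 in H8 and 346, 16 and 254 in H24. The row was not tested in H8/NC. The log2 fold change was 5.61 (SE 1.39, adjusted p = 0.154) in H24/NC and 4.09 (SE 1.09, adjusted p = 0.336) in H24/H8. Without H24 replicate 3 these were 5.37 (SE 1.36, adjusted p = 0.129) and 3.87 (SE 1.15, adjusted p = 0.378), so in contrast to MMP9 this library did not decide the size.

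MMP12, the macrophage elastase, degrades elastin. It lies beside the previous row on chromosome 9, from 33472989 to 33483778 on the minus strand (ENSSSCG00000014987). MMP12 was at 0.0635, 0.239 and 0.710 FPKM in NC, at 0.0579, 0.136 and 0.0472 in H8, and at 0.253, 1.78 and 6.75 in H24. The H24 libraries were all above H8, whereas NC spread widely and its replicate 3 was above H24 replicate 1. The counts were 12, 51 and 130 in NC, 12, 27 and 10 in H8 and 48, 223 and 1157 in H24. The H24/H8 log2 fold change was 4.89 (SE 1.23, adjusted p = 0.336) and without H24 replicate 3 was 3.44 (SE 0.999, adjusted p = 0.374). In H24/NC it was 3.11 (SE 1.28, adjusted p = 0.348). This call was lost without H24 replicate 3 (1.60, adjusted p = 0.704), without H24 replicate 2 (3.36, adjusted p = 0.285), without NC replicate 1 (2.62, adjusted p = 0.632) and without NC replicate 2 (2.92, adjusted p = 0.620). In H8/NC the value was -1.83 (SE 0.95, adjusted p = 0.415), which was not called. Without NC replicate 1 it was -2.32 (adjusted p = 0.361), a call of lower.

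MMP19 is a secreted enzyme that cleaves basement membrane proteins such as type IV collagen and nidogen. It lies on chromosome 5 from 21278081 to 21289547 on the minus strand (ENSSSCG00000000368). MMP19 was at 2.46, 2.35 and 2.21 FPKM in NC, at 7.24, 5.27 and 4.69 in H8, and at 6.43, 6.84 and 21.9 in H24. Both high-fat diet groups were wholly above NC, whose libraries lay close together, and the H8 and H24 groups overlapped. The H8/NC log2 fold change was 1.43 (SE 0.21, adjusted p = 0.0932). In H24/NC it was 2.31 (SE 0.52, adjusted p = 0.135), and without H24 replicate 3 it was 1.48 (SE 0.23, adjusted p = 0.0242). H24/H8 was 0.84 (SE 0.50, adjusted p = 0.467) with all libraries and 0.04 (SE 0.27, adjusted p = 0.964) without H24 replicate 3. MMP19 was thus called at 8 weeks and at 24 weeks, and a difference between these times was not detected. The model of SARNP, on the same strand, covers part of MMP19 and was between 5.87 and 7.74 FPKM in all libraries, and an unnamed gene on the opposite strand (ENSSSCG00000000367) was between 2.77 and 11.3 FPKM, highest in H24 replicate 2 and lowest in H8 replicate 2.

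MMP14, or MT1-MMP, is anchored in the cell membrane, cleaves fibrillar collagen and activates pro-MMP2. It lies on chromosome 7 from 76174503 to 76186094 on the minus strand (ENSSSCG00000002039). MMP14 was at 44.4, 45.3 and 29.9 FPKM in NC, at 63.2, 50.4 and 67.3 in H8, and at 56.1, 74.3 and 198.8 in H24. Every high-fat diet library was above every NC library, and the H8 and H24 groups overlapped. The H8/NC log2 fold change of 0.72 (SE 0.20, adjusted p = 0.211) was under the fold threshold and was not called. The H24/NC value of 1.44 (SE 0.51, adjusted p = 0.288) was called. The call was lost without H24 replicate 3 (0.69, adjusted p = 0.391), without NC replicate 1 (1.51, adjusted p = 0.567) and without NC replicate 3 (1.25, adjusted p = 0.662). H24/H8 was 0.68 (SE 0.48, adjusted p = 0.535) and -0.04 without H24 replicate 3. SLC7A7, an amino acid transporter gene that overlaps MMP14 on the opposite strand, was at 1.13 to 1.37 FPKM in NC, at 6.26, 1.19 and 3.44 in H8 and at 7.43, 5.08 and 54.1 in H24. Whether the counting used strand is not given in the sources used here, so reads of this pair cannot be told apart where they overlap.

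TIMP1 is an inducible inhibitor that binds most MMPs, pro-MMP9 among them, and inhibits MMP14 weakly. It lies on chromosome X from 42102211 to 42106415 on the plus strand, inside SYN1 on the opposite strand (ENSSSCG00000012277). TIMP1 was at 94.7, 104 and 93.7 FPKM in NC, at 118, 125 and 93.2 in H8, and at 151, 355 and 196 in H24. The NC and H8 groups overlapped, every H24 library was above both, and the highest was H24 replicate 2, not replicate 3. The H24/NC log2 fold change was 1.25 (SE 0.36, adjusted p = 0.206), and without H24 replicate 2 it was 0.79 (adjusted p = 0.163), which ended the call. Without H24 replicate 3 it was 1.37 (SE 0.36, adjusted p = 0.147). H24/H8 was 0.89 (SE 0.40, adjusted p = 0.381), not called, but was called without H24 replicate 3 (1.02, adjusted p = 0.445) and without H24 replicate 1 (1.14, adjusted p = 0.328). H8/NC was 0.35 (SE 0.19, adjusted p = 0.433).

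TIMP2 and TIMP3 were the most abundant of the 9 rows in NC and H8 and were not called in any comparison. TIMP2 (ENSSSCG00000017164, chromosome 12 from 3254494 to 3300831, plus strand) was at 288, 244 and 256 FPKM in NC, at 263, 223 and 262 in H8, and at 328, 349 and 312 in H24. Its H24 libraries were all above those of NC and H8, by a small amount, with a log2 fold change of 0.31 (SE 0.24, adjusted p = 0.605) in H24/NC, 0.23 (SE 0.28, adjusted p = 0.728) in H24/H8 and 0.06 (SE 0.14, adjusted p = 0.880) in H8/NC. TIMP3, which binds to the extracellular matrix and also inhibits ADAM proteases, lies on chromosome 5 from 12185819 to 12242604 on the minus strand (ENSSSCG00000031866). TIMP3 was at 231, 252 and 179 FPKM in NC, at 248, 239 and 198 in H8, and at 202, 257 and 68.3 in H24. The groups overlapped except for H24 replicate 3, which was the lowest library of all. Its H24/NC log2 fold change was -0.35 (SE 0.48, adjusted p = 0.798) and without H24 replicate 3 was 0.04 (SE 0.25, adjusted p = 0.981). H8/NC was 0.19 (SE 0.21, adjusted p = 0.713) and H24/H8 -0.55 (SE 0.51, adjusted p = 0.641).

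By overlap of FPKM alone, 6 of the 9 rows were higher in every H24 library than in every NC library: MMP9, MMP19, MMP14, TIMP1, TIMP2 and the row named MMP3. Among all tested genes 12.8% were wholly higher and 7.8% wholly lower in this comparison. In H8/NC, MMP9, MMP19 and MMP14 were wholly higher, 3 of 8 rows tested, where 6.91% of genes were wholly higher and 15.9% wholly lower. In H24/H8, 5 of 9 rows were wholly higher (MMP9, MMP12, the row named MMP3, TIMP1 and TIMP2), where 15.5% of genes were wholly higher and 6.31% wholly lower. None of the rows was wholly lower in any of the 3 comparisons. MMP12 and the row named MMP3 passed the filter in H24/H8 only through H24, as did the row named MMP3 in H24/NC. The counts in those comparisons were therefore in part fixed by the filter.

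**Figure D3:**
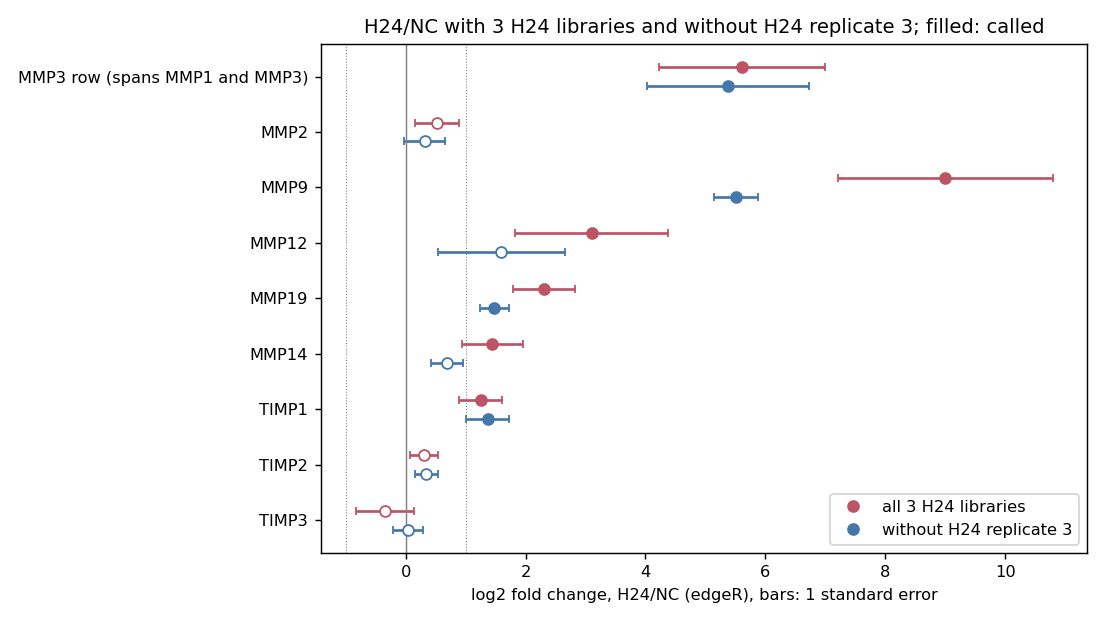
Log2 fold change in H24/NC (x axis) of the 9 rows (y axis), with bars of 1 standard error, with all 3 H24 libraries and without H24 replicate 3. Filled points were called. MMP9 moves from 9.001 to 5.51, MMP14 from 1.44 to 0.69 and MMP12 from 3.11 to 1.60, while TIMP1 (1.25 and 1.37) and the row named MMP3 (5.61 and 5.37) move little.

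The make-up of the enzyme and inhibitor pools was described by sums of FPKM within a library, which count transcripts and not active protein. Only the chosen rows enter these sums. Other MMPs such as MMP28 (43.3 FPKM on average in NC), MMP23B (27.4) and MMP11 (25.3) are outside them. The sums, ratios and shares therefore hold for the chosen rows and not for all MMPs of the aorta. The 6 MMP rows summed to 121 to 177 FPKM in NC, 171 to 257 in H8, and 242, 184 and 848 in H24 replicates 1 to 3. The 3 TIMP rows summed to 528 to 614 in NC, 554 to 628 in H8, and 681, 961 and 576 in H24. The ratio of the MMP sum to the TIMP sum was 0.203 to 0.295 in NC, 0.272 to 0.437 in H8, and 0.355, 0.192 and 1.47 in H24. Only in H24 replicate 3 did the 6 MMP rows exceed the 3 TIMP rows. The ratio in H24 replicate 2, with the highest TIMP1, was below every NC library.

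Within the MMP sum, MMP2 took 69.2% ± 6.18 (SD, n = 3) in NC and 65.7% ± 10.8 in H8. In H24 it took 68.3%, 47.0% and 21.6%. MMP9 took 0.230% ± 0.115 in NC, 0.919% ± 0.489 in H8, and 5.39%, 7.98% and 51.5% in H24. Its share thus was higher in every H24 library than in any other, whereas MMP2 held its share in H24 replicate 1. MMP14 took 28.6% ± 6.09, 30.5% ± 9.45 and 29.0% ± 9.82 in NC, H8 and H24. Among the inhibitors, TIMP1 took 16.8% ± 1.24 of the TIMP sum in NC, 18.9% ± 2.25 in H8, and 22.2%, 36.9% and 34.0% in H24. The share of TIMP3 was 37.8% ± 4.12 in NC, 38.6% ± 2.53 in H8, and 29.7%, 26.8% and 11.9% in H24, so that the H24 libraries lay above the others for TIMP1 and below them for TIMP3.

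Pairs of an enzyme and an inhibitor known to bind each other were also compared within libraries. MMP9/TIMP1 was 0.00313 ± 0.00127 (SD, n = 3) in NC, 0.0161 ± 0.00645 in H8, and 0.0864, 0.0414 and 2.23 in H24, with no overlap between the groups. MMP14/TIMP2 was 0.152 ± 0.0346 in NC, 0.241 ± 0.0153 in H8, and 0.171, 0.213 and 0.637 in H24, where H8 lay above NC and H24 overlapped both. MMP2/TIMP2 was 0.380 ± 0.134, 0.575 ± 0.281 and 0.446 ± 0.177 in NC, H8 and H24, and these groups overlapped.

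**Figure D4:**
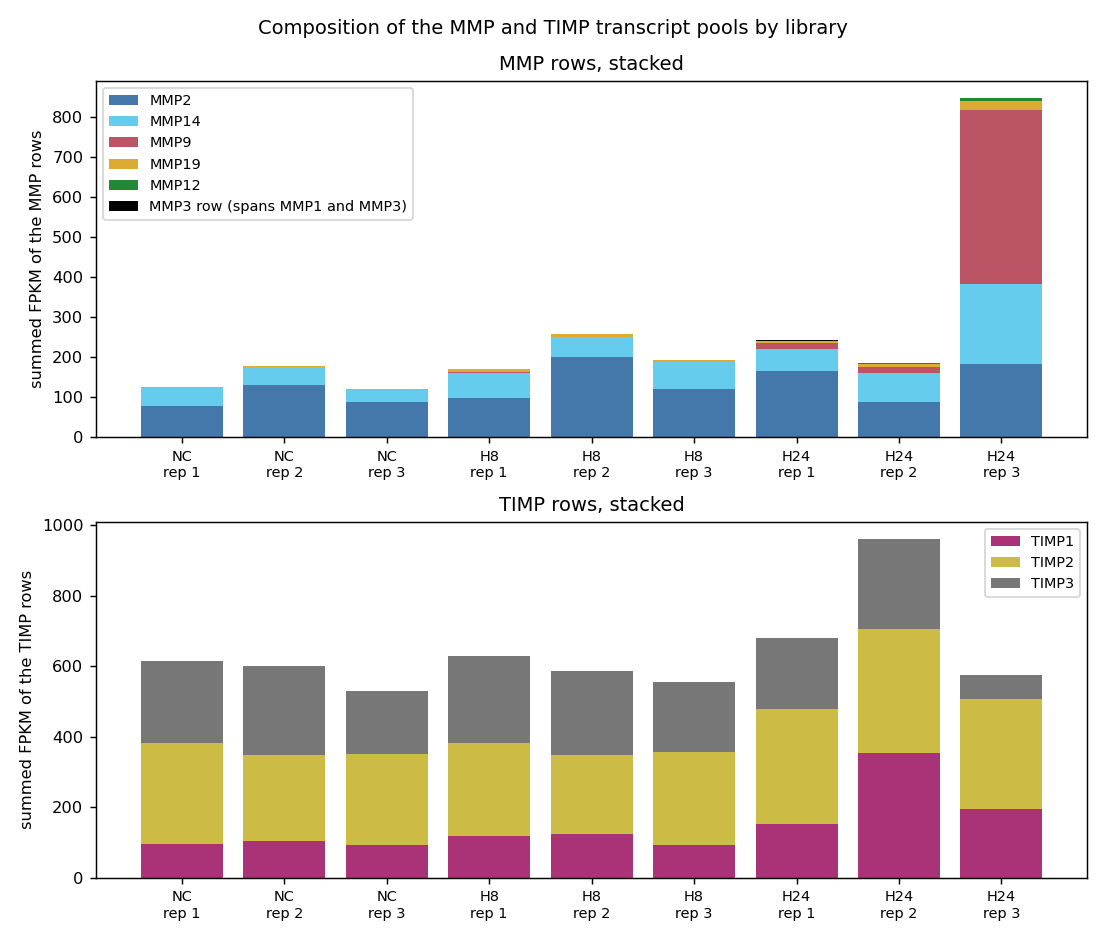
Stacked FPKM of the 6 MMP rows (upper panel, y axis) and the 3 TIMP rows (lower panel, y axis) in each of the 9 libraries (x axis). MMP2 and MMP14 fill most of the MMP bars except in H24 replicate 3, where MMP9 makes up 51.5% of 848 FPKM, and the tallest TIMP bar, 961 FPKM, is H24 replicate 2.

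Levels of cell type markers were set beside those of these genes. The summed level of 10 macrophage markers was 22.9 to 28.3 FPKM in NC, 32.9 to 223 in H8, and 301, 164 and 3926 in H24 replicates 1 to 3. Of them, 10 were called higher in H24/NC and 6 in H8/NC, beside 9.95% and 5.11% of all genes tested. The 6 osteoclast markers found, many of which macrophages also make, summed to 0.502 to 0.958 FPKM in NC, 1.33 to 8.34 in H8, and 18.9, 8.65 and 383 in H24. H24 replicate 3, the library with the highest MMP9, MMP12, MMP14 and MMP19, also had the highest macrophage and osteoclast sums and the lowest smooth muscle sum and TIMP3. Without this library, 9 of 10 macrophage markers tested were still called higher in H24/NC, beside 6.49% of all genes tested. Several osteoclast markers (OSCAR, DCSTAMP, CALCR and OCSTAMP) were under 0.1 FPKM in every NC library, so the filter in part fixed how many of that list were tested and called.

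The order of libraries differed between genes and markers in places. H8 replicate 1 had a higher macrophage sum (223 FPKM) than H24 replicate 2 (164 FPKM), but its MMP9 was 2.39 FPKM against 14.7. GPNMB alone, at 112 and 56.5 FPKM, made up most of that gap. CD163 (14.1 and 9.53 FPKM), TREM2 (11.3 and 6.44), MSR1, AIF1, MRC1 and, by little, CD68 (39.6 and 38.7) went the same way. CD14 (2.78 and 5.04 FPKM), CSF1R (17.1 and 23.3 FPKM) and C1QA (19.5 and 21.1 FPKM) went the other way. TIMP1 was highest in H24 replicate 2, which had the lowest macrophage sum of its group. Among 6 neutrophil markers found, the sum was 0.964 to 1.05 FPKM in NC, 2.34 to 4.50 in H8, and 8.72, 5.35 and 60.8 in H24, and myeloperoxidase (MPO) was under a mean of 0.1 FPKM. CSF3R alone, at 4.32, 2.21 and 3.65 FPKM, made up nearly all of the H8 sums and, at 7.28, 4.55 and 46.8 FPKM, most of the H24 sums. S100A8 was at 0 in every H8 library and ELANE was lower in H8 than in NC, and S100A9 and S100A12 in H8 overlapped with NC. In H24, S100A8 and ELANE overlapped with NC, while S100A9 and S100A12 were above every NC library. T cell markers (6) summed to 0.209 to 0.413, 0.722 to 1.49, and 4.89, 17.8 and 21.4 FPKM, of which CD3E alone gave 15.8 FPKM in H24 replicate 2, while CD2, CD4 and CD8A were lowest of the group there. B cell markers (5) summed to 5.87 to 7.21, 2.29 to 4.63 and 10.4 to 13.7 FPKM, with MS4A1 under a mean of 0.1. The fibroblast sum (6 markers) was 234 to 339 FPKM in NC, 362 to 845 in H8, and 591, 394 and 268 in H24, and H8 replicate 2, which had the highest MMP2, had the highest fibroblast sum. DCN and PI16 made up most of this sum in NC and H8. Of the 6, LUM (2.69, adjusted p = 0.126) and PDGFRA (1.49, adjusted p = 0.163) were called higher in H24/NC. PI16 (1.66, adjusted p = 0.233) was called higher in H8/NC. Endothelial markers (5 found) summed to 49.1 to 129, 33.0 to 59.2 and 58.3 to 92.4 FPKM. Adipocyte markers (5) summed to 89.7 to 157, 49.1 to 140 and 57.2 to 106 FPKM, most of it FABP4 in every library. The specific markers ADIPOQ (4.44, 14.6 and 6.83 FPKM in NC, 0.0954, 0.106 and 0.0789 in H8) and PLIN1 (3.59, 16.5 and 5.91 in NC, at most 0.0823 in H8) were far lower in H8. Of the adipocyte markers, 3 of 4 tested were called lower in H8/NC, beside 2.27% of all genes tested. ADIPOQ and PLIN1 averaged under 0.1 FPKM in H8 and passed the filter in H8/NC only through NC. In H24 ADIPOQ was at 7.24, 0.0705 and 0.416 FPKM and PLIN1 at 5.58, 0.134 and 0.213. LEP, at 0.831, 0.351 and 0.990 FPKM in H24, was above every NC library. It was the only adipocyte marker called in H24/NC (2.53, adjusted p = 0.132). In H24/H8, 4 of the 5 were called higher, beside 7.22% of all genes tested. Of these, ADIPOQ, PLIN1 and LEP averaged under 0.1 FPKM in H8 and passed that filter only through H24. Skeletal muscle markers (3 found) stayed at or below 1.59 FPKM and chondrocyte or osteoblast markers (4 found) at or below 5.09 FPKM. The part of cell content in the MMP and TIMP differences was not tested.

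**Figure D5:**
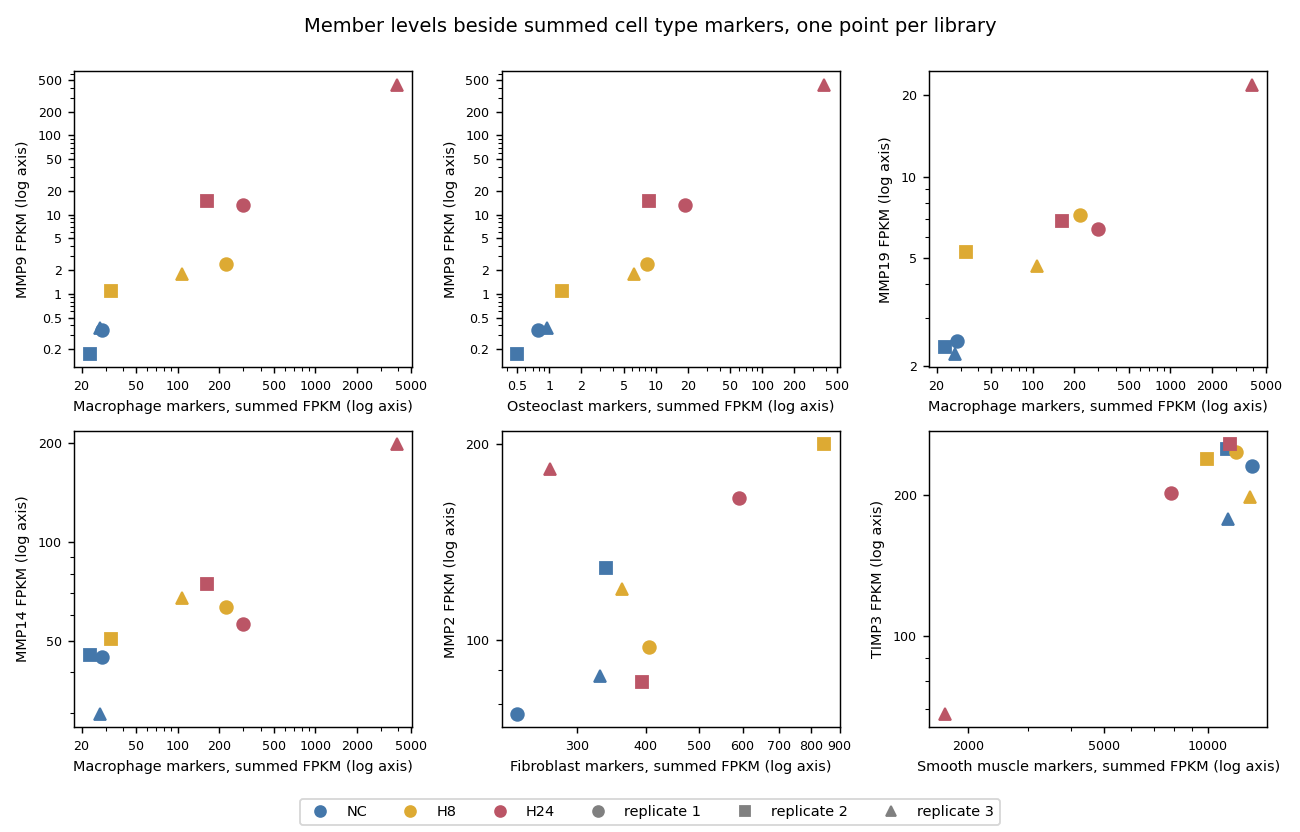
Levels of MMP9, MMP19, MMP14, MMP2 and TIMP3 (y axes, FPKM, log scale) against the summed FPKM of a marker list (x axes, log scale), 1 point per library, coloured by group with shapes for replicates. H24 replicate 3 lies apart in the panels with macrophage, osteoclast and smooth muscle markers (3926, 383 and 1712 FPKM).

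Of the other MMPs and TIMP4, 14 of 16 names had a row and 10 were tested in H24/NC. TIMP4, an inhibitor found mainly in heart and vessels, was the only one called in H24/NC, at 0.679, 0.319 and 0.0910 FPKM in NC, 0.130, 0.190 and 0.192 in H8 and 1.24, 0.584 and 2.16 in H24. Its log2 fold change was 1.85 (SE 0.78, adjusted p = 0.360) in H24/NC, where the groups overlapped and the call was lost without NC replicate 2 or 3 or H24 replicate 1 or 3 (1.296 to 1.92), and 2.74 (SE 0.55, adjusted p = 0.336) in H24/H8. In H8/NC, 2 of 10 were called higher, MMP16 (a membrane-type enzyme, 1.06, adjusted p = 0.222) and MMP25 (a leukocyte enzyme, 4.95, adjusted p = 0.293). MMP25 rested on H8 replicate 2, at 11.5 FPKM where the other H8 libraries were at 0.220 and 0.0848, and its value was 0.12 without that library. The MMP25 call was also lost without any 1 NC library (4.48 to 5.61). MMP16 was not called without H8 replicate 2 (0.89) or NC replicate 2 (0.86). The median log2 fold change of the list was -0.01 in H24/NC, -0.12 in H8/NC and 0.24 in H24/H8, close to that of all genes tested in H24/NC. Among all genes tested, 9.95% were called higher in H24/NC and 5.11% in H8/NC, so the H24/NC count of this list was near that share.

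Of 15 activators and other regulators of MMPs, 11 were tested. Of these, 4 were called higher in H24/NC and none lower, beside 9.95% and 1.52% of all genes tested. SERPINE2, an inhibitor of plasminogen activators and thrombin, was at 2.30 to 4.70 FPKM in NC, 3.01 to 5.37 in H8 and 25.2, 13.0 and 24.4 in H24, with an H24/NC log2 fold change of 2.61 (SE 0.39, adjusted p = 0.132) and an H24/H8 value of 2.19 (SE 0.35, adjusted p = 0.286). The urokinase receptor PLAUR was at 1.89 (SE 0.39, adjusted p = 0.132) in H24/NC and 1.73 (SE 0.47, adjusted p = 0.210) in H8/NC, the latter 1.002 without H8 replicate 2. Urokinase itself, PLAU, which generates plasmin, was at 1.86 (SE 0.59, adjusted p = 0.250) and 2.18 (SE 0.81, adjusted p = 0.285). PLAU was 49.4 FPKM in H8 replicate 2, and the H8/NC value without that library was 0.61, with the call also lost without NC replicate 1 (2.14) or 2 (1.93). The PLAU call in H24/NC was lost without H24 replicate 3 (0.97) and without NC replicate 1 (1.81) or 2 (1.61). The general protease inhibitor A2M was at 1.14 (SE 0.43, adjusted p = 0.323) in H24/NC and kept this call, of the 6 libraries left out in turn, only when H24 replicate 3 was left out. In H8/NC, 3 regulators were called higher and 1 lower, beside 5.11% and 2.27% of all genes tested. The gene called lower, named here with its value known, was ELANE, the neutrophil elastase gene, at -2.21. It averaged 0.0908 FPKM in H8 and passed the filter only through its NC libraries.

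Among 18 matrix substrates of these enzymes, 15 were tested and 2 were called higher in H24/NC. This count was near the share of all genes tested that were called higher, 9.95%. The proteoglycan versican (VCAN) was at 7.61, 5.44 and 3.51 FPKM in NC, 9.32, 7.76 and 5.26 in H8 and 32.7, 26.4 and 35.2 in H24, so the H24 libraries stood apart from the rest and replicate 3 did not differ from the others of its group. Its log2 fold change was 2.49 (SE 0.34, adjusted p = 0.129) in H24/NC and 1.88 (SE 0.31, adjusted p = 0.314) in H24/H8. Osteopontin (SPP1), a secreted phosphoprotein that MMPs cleave, was at 5.43 (SE 1.04, adjusted p = 0.132) in H24/NC, 3.78 without H24 replicate 3 (adjusted p = 0.00942), and 2.25 (SE 0.51, adjusted p = 0.187) in H8/NC. In H8/NC, 3 of 15 substrates were called higher, where 5.11% of all genes tested were. They were SPP1 and the chains of type I collagen COL1A1 (1.02, adjusted p = 0.187) and COL1A2 (1.15, adjusted p = 0.201). The values of all 15 were above 0, but the share of all tested genes above 0 was not counted. For FN1 the value was 0.08 (SE 0.38), and its mean FPKM was lower in H8 (682) than in NC (708). Both collagen calls were lost without H8 replicate 2 (0.96 and 0.80). COL1A1 was also lost without H8 replicate 3 (0.89) and NC replicate 1 (0.93). The median of the list was 0.58 in H8/NC, 0.08 in H24/NC and -0.57 in H24/H8.

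Of 15 transcription factors known to act at MMP promoters, 12 were tested and 3 were called higher in H24/NC, beside 9.95% of all genes tested. The myeloid factor SPI1 was at 1.66, 2.45 and 2.44 FPKM in NC, 14.9, 4.31 and 10.0 in H8 and 19.3, 16.6 and 164 in H24, with log2 fold changes of 2.26 (SE 0.44, adjusted p = 0.170) in H8/NC and 4.91 (SE 1.01, adjusted p = 0.132) in H24/NC, which was 3.01 without H24 replicate 3. As for MMP9, the groups did not overlap in order of NC, H8 and H24. The osteoblast factor RUNX2 was at 3.92 (SE 0.88, adjusted p = 0.135, 3.24 without H24 replicate 3) and the ETS factor ETV4 at 2.15 (SE 0.47, adjusted p = 0.132) in H24/NC. In H8/NC, 2 of the factors were called higher, beside 5.11% of all genes tested. These were SPI1 and the AP-1 subunit FOSB at 2.42 (SE 0.96, adjusted p = 0.309). The FOSB call was lost when any 1 of 5 of the 6 libraries was left out (1.94 to 2.75).

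The genes whose levels were most like each member over the 9 libraries were found by Pearson's r of log2(FPKM + 0.1), a description across libraries that share group, depth and the pull of H24 replicate 3. For MMP9 these were BATF (0.991), NCF4 (0.990) and TREH (0.990), and over the 8 libraries without H24 replicate 3 they were ABCA1 (0.990), CMTM3 (0.989) and TREH (0.980). For MMP19 they were FOLR1 (0.989) and VNN2 (0.984), and over 8 libraries HBEGF (0.988), CD83 (0.986) and EHD3 (0.982). MMP2 was closest to the mitochondrial genes ND1 and ND3 (0.974 and 0.932), and over 8 libraries DCN, a fibroblast proteoglycan, followed them (0.920). IKBKG and CD3E were closest to TIMP1 over 9 libraries (0.966 and 0.953) and over 8 (0.969 and 0.960). For TIMP3, TIMP2, MMP12 and the row named MMP3 the closest genes over 9 libraries were ABL1 (0.977), ITGA11 (0.954), MOB3A (0.965) and C5AR2 (0.957). Over the 8 libraries these were at 0.709, 0.954, 0.917 and 0.957, so the likeness of ABL1 to TIMP3 rested on H24 replicate 3, and ZFPM1 (0.974) was then closest to TIMP3.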

How the data were processed

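Poly(A) RNA of the abdominal aorta was sequenced by the authors as paired-end libraries. Reads were mapped by the authors with HISAT 2.0 to Sscrofa11.1, and StringTie 1.3.0 gave the deposited FPKM values. The submitters' processing notes list HISAT2 2.0, StringTie 1.3.0 and also Bowtie 0.12.2 and a mouse build, whose role is not given, and the extraction text speaks of adipose RNA. The deposited table also holds expected counts, whole numbers whose derivation and strand setting are not given in the sources used here. Library totals were 44094263 to 75787978.

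Samples were grouped by their labels, and no library was left out. The 10 genes and all lists were chosen with earlier results of these data known. The row of each symbol was used (the highest mean FPKM if several). The edgeR package (version 4.0.16, R 4.3.3) was applied to the expected counts with TMM, a dispersion trend and its quasi-likelihood test, for genes whose FPKM averaged at least 0.1 in the 6 libraries compared. It was first tested on simulated data. SEs were computed from the fold change and F statistic. Named genes of the 4 lists were up to 4 per list, by the smallest p in H24/NC, then those called in H8/NC. Genes named for H24/H8 alone in the closing section were chosen with their values known. The most alike genes were the 3 named genes with the highest r and a mean FPKM of at least 1, and some genes that these rules name are not reported here. Alternatives used DESeq2 1.42.0, limma 3.58.1, other scalings and filters, a replicate block and each library left out. Motif searches that had been planned were not run, and protein and blood measurements were not analysed here.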

Additional observations from a re-analysis of the deposited data

Results flagged for a closer look

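In the H24/H8 comparison the NC libraries cancel, so it tests whether the difference from the 24-week controls is larger in H24 than in H8. Weeks of diet, time on study and age cannot be told apart in it. By the unadjusted threshold it was called for 3 of the 9 rows, with log2 fold changes of 6.26 for MMP9 (adjusted p = 0.336, edgeR), 4.89 for MMP12 and 4.09 for the row named MMP3. Among all genes tested in H24/H8, 7.22% were called higher and 3.05% lower. MMP12 and the row named MMP3 passed the filter on low values only through H24. In each of these genes all 3 H24 libraries were above all 3 H8 libraries.

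Among the other lists, called higher in H24 than in H8 were TIMP4 (2.74), SERPINE2 (2.19), ELANE (2.32), VCAN (1.88), SPP1 (3.13), RUNX2 (3.57), ETV4 (2.58) and SPI1 (2.59). Called lower were MMP16 (-1.21), elastin (ELN, -1.16) and the AP-1 subunits FOSB (-2.80) and FOSL1 (-1.51). Their adjusted p-values were between 0.286 and 0.342. Without H24 replicate 3 RUNX2 was at 2.92, still called, and the value was 0.74 for SPI1, 1.51 for SPP1, -0.99 for ELN, -0.96 for MMP16 and -1.44 for FOSL1, and these 5 were then not called. Without H8 replicate 2, FOSL1 was at -0.49 and MMP16, ELN, SPP1, SPI1 and FOSB also lost their calls. Leaving out H24 replicate 1 also ended the calls of ELN and FOSL1, H24 replicate 2 that of FOSL1, and H8 replicate 3 those of ELN and SPI1. ELANE lost its call without H24 replicate 1 or H8 replicate 1 or 3, and its counts were 6 to 9 in H8 and 32 to 41 in NC. It averaged 0.0908 FPKM in H8 and passed the filter in H24/H8 only through its H24 libraries.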

How the results depend on the processing

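The number of rows past an adjusted p of 0.05 with a log2 fold change beyond 1 was 0 in each comparison and became 3 in H24/NC, 2 in H8/NC and 2 in H24/H8 with DESeq2, where 954, 616 and 650 of all genes passed, and which gave no p for MMP9 in H24/NC and H24/H8. MMP14 in H8/NC passed by the adjusted p alone (0.0488). Leaving out each replicate gave 0 to 2 in H24/NC, the 2 being MMP9 and MMP19 without H24 replicate 3, where 306 of 14578 genes passed. The rows called numbered 4 to 6 in H24/NC, 2 to 3 in H8/NC and 3 to 4 in H24/H8 when each replicate was left out. Over all genes, 1132 to 2251, 845 to 1244 and 804 to 2091 were called in those fits. In H8/NC 1 of the 2 calls was left with all 9 libraries in one fit (MMP9, adjusted p = 0.569, lost) and 1 with limma on log2(FPKM + 1) (MMP19, 0.99, lost), a scale that lowers the change of low genes. H24/NC for MMP12 was lost in 7 of 17 alternatives and for MMP14 in 4 of 17.

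Of the rows not called, TIMP3 in H24/NC ranged from -0.767 to 0.0373 with a replicate left out, the highest without H24 replicate 3. TIMP2 in H8/NC was -0.0861 with scaling by library size only and -0.0749 and -0.0746 with limma on log2(FPKM + 0.1) and log2(FPKM + 1). MMP14 in H24/H8 ranged from -0.0418 (without H24 replicate 3) to 1.0004 with a replicate left out. MMP2 in H24/H8 was 0.0751 with scaling by library size only and 0.0528 and 0.0526 with those limma settings, and ranged from -0.389 to 0.280 with a replicate left out (0.0689 without H24 replicate 2, 0.280 without H8 replicate 2). Scaling by library size only moved the median of all genes to -0.13 in H8/NC and 0.24 in H24/H8, and TIMP1 in H24/H8 was then called at 1.08.

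Replicate numbers did not pair the samples (r of same-numbered deviations -0.06 to 0.07). With a replicate block 5, 2 and 3 rows were called in H24/NC, H8/NC and H24/H8, MMP14 in H24/NC being lost (1.21, adjusted p = 0.510), and over all genes 1364, 950 and 1275 were called.

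Over all genes, 1700, 1059 and 1519 were called in H24/NC, H8/NC and H24/H8. Limma on log2(FPKM + 1) gave 855, 343 and 694. A filter at a mean FPKM of 1 gave 618 in H8/NC. Without H24 replicate 3 there were 1132 in H24/NC and 912 in H24/H8, and without H8 replicate 2 804 in H24/H8. The share called higher in H8/NC was 69.2%, and 55.7% with library size only, 47.3% with limma on log2(FPKM + 0.1) and 58.9% on log2(FPKM + 1). In H24/H8 it was 70.3%, and 83.3% with library size only. The cause of these shifts was not tested. The row named MMP3, with 0 to 8 counts in NC, was the one most limited by depth.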
